A study of Mus musculus with 6 samples.

Results

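The genes described here are 40 genes of glycolysis and of the hypoxia response, taken by symbol from a deposited table of read counts for 21878 genes. All 40 symbols were found, and all 40 passed the filter on low counts. They fall into 18 glycolytic enzymes, 3 transporters of glucose and lactate, 3 switches of glycolytic flux, 6 subunits and regulators of the hypoxia-inducible factor (HIF), and 10 other targets of HIF. Their mRNA was sequenced in macrophages sorted by FACS from mouse tumours 14 days after injection of MC38 cells, a colon carcinoma line. The 3 KO libraries came from Trmt61a f/f LysmCre mice. LysmCre is expressed from a lysozyme gene of myeloid cells, so neutrophils and monocytes can lose Trmt61a too. The 3 WT libraries came from Trmt61a f/f mice without the Cre, and tumours of both groups were MC38. Trmt61a is the catalytic partner in the methyltransferase for 1-methyladenosine in tRNA. The labels give no age or sex and do not say whether the libraries came from separate mice, so p-values measure the spread between libraries, which may be technical.

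Glycolysis splits glucose into pyruvate in the cytosol, and lactate dehydrogenase and a lactate exporter allow it to run on when oxygen is short. HIF is a pair of proteins, an oxygen-labile alpha subunit (Hif1a or Epas1) and the stable partner Arnt. In oxygen, prolyl hydroxylases of the Egln family mark the alpha subunit and the ubiquitin ligase subunit Vhl has it destroyed, so HIF activity is set largely at the level of protein, which RNA counts do not measure. When oxygen falls, HIF raises transcription of most glycolytic genes and of genes for vessel growth, mitophagy and collagen modification. Macrophages in poorly perfused parts of tumours are known for high expression of such genes. Inflammatory stimuli also raise Hif1a and glycolysis in macrophages.

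Library totals ran from 18839026 to 20313597 counts. Levels are given as CPM, a gene's counts brought to the same library total in every library with edgeR's TMM factors. Trmt61a had 138 to 157 counts in the WT libraries and 33 to 50 in the KO libraries, so all 6 libraries followed their labels. Of 12136 genes tested with edgeR's quasi-likelihood test, 2 (0.0165%) had an adjusted p under 0.05 (Benjamini-Hochberg), the threshold for a call. The defining macrophage genes Csf1r, Adgre1, Cd68 and Itgam were each at 444.7 CPM or more in every library. All 10 macrophage markers summed to 12969 to 14564 CPM in WT and to 12762 to 13247 CPM in KO, which overlapped. Of these 10, 3 had a positive log2 fold change. For C1qa, C1qb and C1qc every KO library was below every WT library, as for 6.3% of all tested genes. Their log2 fold changes were -0.21, -0.19 and -0.25. Of 9 epithelial markers, Cldn4, Cdx2 and Krt20 were at 0 in every library, 5 others were under 0.5 CPM, and Cdh1 was at 76.7 to 141 CPM. Neutrophil markers summed to 85.4 to 120 CPM in WT and to 132 to 182 CPM in KO, and markers of T and NK cells to 129 to 168 CPM in WT and to 170 to 238 CPM in KO. In both lists the sums did not overlap between the groups. Of the tested markers, 6 of 7 neutrophil genes and 10 of 11 T and NK genes had a positive log2 fold change. The lack of overlap in each sum, though, depended on 1 abundant gene. Without Il7r the T and NK sums were 16.8, 21.5 and 31.2 CPM in WT against 19.996, 59.9 and 25.04 CPM in KO, and without Mmp9 the neutrophil sums were 72.0, 54.7 and 57.2 CPM in WT against 56.6, 100.5 and 67.6 CPM in KO, so that both overlapped. Their part in the values that follow was not tested. A bulk library cannot tell fewer cells of a type from less RNA per cell.

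Levels of the glycolytic and hypoxia genes differed little between KO and WT macrophages, with fitted fold changes from 0.805 (Hk2) to 1.23 (Egln3). None of the 40 was called with edgeR (smallest adjusted p 0.703, for Hk2), and DESeq2 also called 0. At an unadjusted p under 0.05 with edgeR, 1 member was lower in KO (Hk2) and 0 were higher, where 3.06% of all tested genes were lower and 3.86% were higher. The intervals show how large a difference these libraries leave room for. The 95% interval of the fold change lay within 2-fold of equality for all 40 members and within 1.5-fold for 34. The 6 members with wider intervals were Slc2a3, Eno2, Ldhb, Egln3, Adm and Hk3. Slc2a3, Eno2, Ldhb and Adm were at or under 17.4 CPM in every library, and the other two differed widely between the WT libraries.

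**Figure D1:**
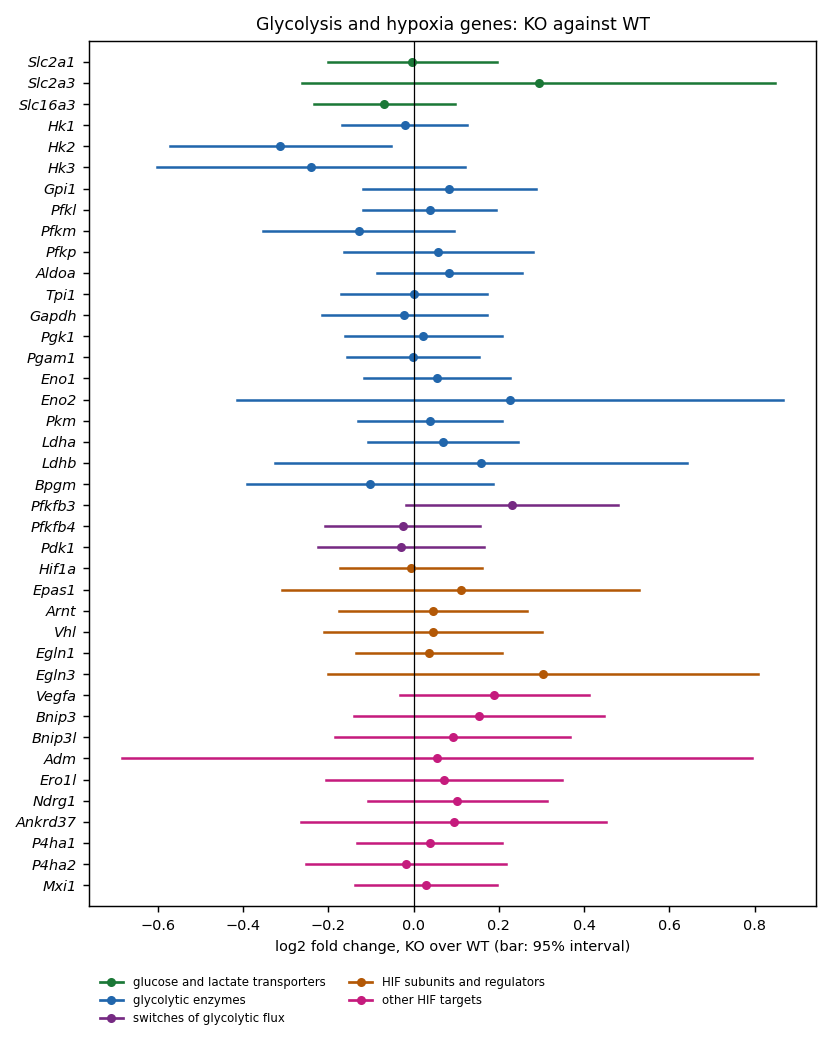
Each dot is a gene's log2 fold change, KO over WT (x axis), with its 95% interval as a bar, and colours mark the roles of the genes. Every interval except that of Hk2 crosses 0, and 9 of the 10 other HIF targets lie to the right of 0.

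The median difference was near 0 in every role group. Glycolytic enzymes centred on no difference, with a median log2 fold change of 0.03 (-0.0084 to 0.053 with 1 library left out), 11 positive and 7 negative. The HIF subunits and regulators had a median of 0.046, with 5 of 6 positive, and with 1 library left out the median ran from -0.0038 (without KO replicate 2) to 0.14 (without KO replicate 3). The other HIF targets had a median of 0.081, with 9 of 10 positive and P4ha2 alone negative. Over all tested genes the median was -0.00088 and 49.8% were positive. These counts and medians are descriptions, and the groups were not tested against each other. Without WT replicate 2 the median of the other HIF targets was 0.24, and without WT replicate 1 it was 0.0082, so its size rested on which WT libraries were present.

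Promoters were searched for the core of the HIF response element, ACGTG or GCGTG on either strand, in the 250 bases before and 50 after the start sites that RefSeq gives on GRCm38.p6. A start site was listed for 35 of the 40 members, and a gene with several starts counted once if any promoter held a match. Of these 35, 30 (85.7%) held at least 1 match, beside 67.5% of the 9381 tested genes with a listed promoter, and 22 (62.9%) held at least 2 separate matches, beside 34.3%. All 7 other HIF targets with a listed promoter held a match, as did 14 of 18 enzymes and 4 of 5 HIF subunits and regulators. The motif overlaps the E-box CACGTG, which other factors bind and which the promoters of 5 of the 35 (14.3%) held, beside 11.7% of the tested genes with a listed promoter. A match is a description of the letters only. The stretches below run from 10 bases before the first match to 10 after the last, upstream of the start site, in the direction of transcription, with matches in capitals. Egln3, Vegfa and Bnip3 are shown as HIF targets whose levels differed between the WT libraries, Ldha and Pgk1 as abundant enzymes whose levels differed little, and Hk2 as the member with the smallest p, with their values given below.
Egln3 (chr12:54204089-54204113, minus strand, bases -239 to -215 from the start site): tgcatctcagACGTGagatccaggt
Vegfa (chr17:46025360-46025391, minus strand, bases -228 to -197 from the start site): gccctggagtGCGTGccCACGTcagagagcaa
Bnip3 (chr7:138909527-138909633, minus strand, bases -127 to -21 from the start site): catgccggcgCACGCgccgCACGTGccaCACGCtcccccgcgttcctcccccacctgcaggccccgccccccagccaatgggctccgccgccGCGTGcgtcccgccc
Ldha (chr7:46845649-46845784, plus strand, bases -155 to -20 from the start site): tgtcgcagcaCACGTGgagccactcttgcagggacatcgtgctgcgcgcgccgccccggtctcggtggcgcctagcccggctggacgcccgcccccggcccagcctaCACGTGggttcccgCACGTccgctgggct
Pgk1 (chrX:106186940-106186983, plus strand, bases -160 to -117 from the start site): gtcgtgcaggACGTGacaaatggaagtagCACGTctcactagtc
Hk2 (chr6:82774492-82774690, minus strand, bases -236 to -38 from the start site): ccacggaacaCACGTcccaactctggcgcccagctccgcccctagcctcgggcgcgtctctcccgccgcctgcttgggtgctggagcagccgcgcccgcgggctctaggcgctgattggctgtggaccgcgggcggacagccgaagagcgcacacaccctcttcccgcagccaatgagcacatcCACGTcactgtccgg
The ACGTG form was present in all 6 stretches, and the GCGTG form only in those of Vegfa and Bnip3, counting both strands. Ldha held 3 separate matches and Pgk1 2 in these stretches, beside 4 in Bnip3, 2 in Vegfa, 2 in Hk2 and 1 in Egln3, and both Ldha and Bnip3 held CACGTG.

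Among the transporters, Slc2a1 (GLUT1, the widely expressed glucose importer) was at 596, 726 and 619 CPM in the WT libraries and at 622, 678 and 637 CPM in the KO libraries. WT replicate 2 was highest and WT replicate 1 lowest, with every KO library between them. The log2 fold change was -0.0029 (SE 0.0885, adjusted p = 0.994 with edgeR), with an interval of -0.20 to 0.19. Slc16a3 (MCT4, which exports lactate) was at 529, 550 and 503 CPM in WT and at 475, 503 and 531 CPM in KO, and the groups overlapped. Its log2 fold change was -0.068 (SE 0.0739, adjusted p = 0.853 with edgeR). Slc2a3 (GLUT3, a high-affinity glucose importer) was the least abundant of the 3, at 3.57, 2.62 and 3.34 CPM in WT and 3.01, 4.99 and 3.70 CPM in KO. Per kb of exon, Slc2a1 made up 99.8% ± 0.0599 of the RNA of this pair in WT and 99.7% ± 0.0611 in KO (SD, n = 3 each; two-sided exact permutation p = 0.5).

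Hexokinase, which traps glucose in the cell as glucose 6-phosphate, was the step with the largest negative values. Hk2, the inducible isoform and a HIF target, was at 346, 298 and 296 CPM in WT and at 224, 299 and 234 CPM in KO. KO replicates 1 and 3 were below all WT libraries, and KO replicate 2 was level with WT replicates 2 and 3. The log2 fold change was -0.31 (SE 0.116; unadjusted p = 0.0235, adjusted p = 0.703 with edgeR), with an interval of -0.57 to -0.05. Without WT replicate 1 it was -0.23, without KO replicate 1 -0.23 and without KO replicate 3 -0.26, each with an unadjusted edgeR p above 0.05 (0.0696, 0.0898 and 0.0698). Without KO replicate 2 it was -0.45 (adjusted p = 0.391 with edgeR). Hk3, the isoform typical of myeloid cells, was at 677, 458 and 494 CPM in WT and at 395, 522 and 462 CPM in KO. WT replicate 1 stood above the other libraries, which overlapped. Its log2 fold change was -0.24 (SE 0.158, adjusted p = 0.783 with edgeR), and it was -0.051 without WT replicate 1. Hk1, the constitutive isoform, varied least, from 198 to 213 CPM over the 6 libraries, with a log2 fold change of -0.02 (SE 0.0657).

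Hk3 was the leading hexokinase of these macrophages. Per kb of exon it made up 65.4% ± 3.43 of hexokinase RNA in WT and 65.3% ± 1.57 in KO. Hk2 followed with 23.6% ± 1.64 and 22.1% ± 1.13, and Hk1 with 11.01% ± 1.79 and 12.6% ± 1.37 (SD, n = 3 each). The share of Hk1 did not differ beyond the spread (two-sided exact permutation p = 0.5, adjusted p = 0.833 over 10 paralog families). With 3 libraries against 3 this test cannot go below 0.1. The order Hk3, Hk2, Hk1 also held in CPM, without the division by length.

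Phosphofructokinase, the committed and most regulated step, was supplied mainly by the liver and platelet isoforms. Per kb, Pfkl made up 57.2% ± 0.712 of the family in WT and 57.5% ± 2.51 in KO, Pfkp 35.0% ± 1.03 and 35.5% ± 2.38, and Pfkm (the muscle isoform) 7.82% ± 0.478 and 6.995% ± 0.538. In CPM alone Pfkp was above Pfkl, 347 against 282 CPM in WT, so their order depends on the length used. Pfkm was at 19.8, 19.6 and 18.5 CPM in WT and at 16.4, 17.6 and 19.0 CPM in KO. KO replicates 1 and 2 were below all WT libraries and KO replicate 3 was among them. Its log2 fold change was -0.13 (SE 0.101, adjusted p = 0.801 with edgeR), while Pfkl was at 0.038 and Pfkp at 0.058.

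Pfkfb3 makes fructose 2,6-bisphosphate, the strongest activator of phosphofructokinase. Its RNA was at 164, 171 and 161 CPM in WT and at 179, 233 and 171 CPM in KO. All KO libraries were above all WT libraries, the lowest by under 1 CPM, and KO replicate 2 stood apart. The log2 fold change was 0.23 (SE 0.111; unadjusted p = 0.0646, adjusted p = 0.722 with edgeR), and without KO replicate 2 it was 0.081. Of the 40 members, Pfkfb3 was 1 that had every KO library above every WT library, as 6.11% of all tested genes did. Bpgm, which diverts an intermediate to 2,3-bisphosphoglycerate, was 1 with every KO library below every WT library, as 6.3% of all genes did (8.40 ± 0.165 CPM in WT, 7.83 ± 0.149 CPM in KO; SD, n = 3 each; log2 -0.10, adjusted p = 0.877 with edgeR). Neither count exceeds those background shares.

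Pfkfb4, a paralog of Pfkfb3, was at 45.9, 47.8 and 46.6 CPM in WT and at 45.7, 50.02 and 42.1 CPM in KO, with the groups overlapping and a log2 fold change of -0.026 (SE 0.0819). Pfkfb3 therefore made up 69.8%, 69.7% and 69.1% of this pair per kb in WT replicates 1 to 3, and 71.6%, 75.0% and 72.4% of it in KO replicates 1 to 3. The shares did not overlap, with a difference of 3.48 percentage points (two-sided exact permutation p = 0.1, below which 3 against 3 cannot go, and adjusted p = 0.833 over 10 families). Pdk1, a kinase that limits the oxidation of pyruvate in the mitochondrion, was at 122, 146 and 130 CPM in WT and at 140, 128 and 121 CPM in KO. Its groups overlapped fully, and the log2 fold change was -0.029 (SE 0.0873, adjusted p = 0.951 with edgeR).

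The lower steps of the pathway held the most abundant of these RNAs, and their differences were small. Pkm, pyruvate kinase, was at 4276, 4104 and 3850 CPM in WT and at 4159, 4192 and 4215 CPM in KO. The KO libraries all lay inside the range of the WT libraries, and the log2 fold change was 0.039 (SE 0.0757, adjusted p = 0.920 with edgeR; interval -0.13 to 0.21). Aldoa, the aldolase, was at 2096, 2240 and 1993 CPM in WT and at 2166.2, 2249 and 2292 CPM in KO, with KO replicates 2 and 3 above all WT libraries and KO replicate 1 among them. Its log2 fold change was 0.084 (SE 0.0765, adjusted p = 0.831 with edgeR). Per kb of exon, Pkm (815 ± 42.9 CPM per kb in WT) was followed by Aldoa (569 ± 33.5), Pgk1 (543 ± 40.1), Ldha (438 ± 27.1), Eno1 (407 ± 19.6) and Tpi1 (382 ± 20.7) (SD, n = 3). The SD ranges of Aldoa and Pgk1 overlapped, as did those of Ldha and Eno1 and those of Eno1 and Tpi1. Within each WT library, however, the first gene of each of these pairs was the higher per kb. The order was not tested. Gpi1, Tpi1, Pgk1, Pgam1, Eno1 and Ldha had log2 fold changes between -0.002 and 0.083, and their intervals all lay between -0.17 and 0.29. Ldha, which turns pyruvate to lactate, made up 98.1% ± 0.329 of lactate dehydrogenase RNA per kb in WT and 98.0% ± 0.532 in KO, the rest being Ldhb, whose subunit favours the reverse reaction. Eno1 made up 99.9% of the enolase pair in both groups, against the neuronal isoform Eno2.

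**Figure D2:**
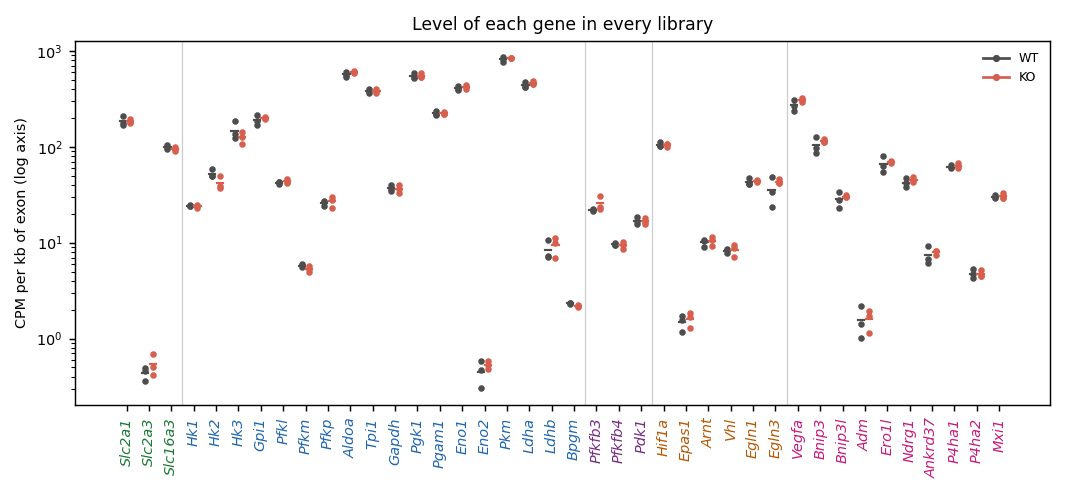
Each dot is 1 library, placed by CPM per kb of exon on a log axis, with WT in grey, KO in red and a dash at each group's mean. Lower glycolysis from Aldoa to Ldha stands near the top except Gapdh and the isoforms Eno2 and Ldhb, and Slc2a3 and Eno2 lie under 1 CPM per kb in all 6 libraries.

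Gapdh, the dehydrogenase between Tpi1 and Pgk1, was counted at 150, 164 and 143 CPM in WT and at 151, 163 and 136 CPM in KO, with overlapping groups and a log2 fold change of -0.022 (SE 0.0864). Per kb it was at 36.8 ± 2.53 CPM in WT, far under its neighbours Tpi1 and Pgk1 at 382 and 543. It is described in this detail because of that value. Of the 50-base windows of its principal transcript in GENCODE M21, 82.5% also occur in transcripts of other genes. That share was 72.2% for Eno1, 68.0% for Pgk1, 62.4% for Bnip3, 41.5% for Pgam1 and 34.4% for Pkm, and 0% for Hk1, Hk2, Hk3 and Egln3. The sources used here do not give how reads that map to several places were counted, so the levels of these genes are uncertain, and their part in the low Gapdh value was not tested. The comparison of KO with WT is within each gene.

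Hif1a, the main oxygen-sensitive subunit, was at 661, 603 and 594 CPM in WT and at 586, 635 and 629 CPM in KO. The groups overlapped, and the highest and the lowest library were WT replicate 1 and KO replicate 1. The log2 fold change was -0.0058 (SE 0.0748, adjusted p = 0.987 with edgeR; interval -0.17 to 0.16). Epas1, which encodes the alternative subunit HIF-2 alpha, was far less abundant, at 6.53, 8.82 and 9.52 CPM in WT and 10.3, 9.34 and 7.25 CPM in KO. Its log2 fold change was 0.11 (SE 0.187, adjusted p = 0.906 with edgeR). Per kb, Hif1a made up 98.6% ± 0.331 of the pair in WT and 98.5% ± 0.309 in KO (SD, n = 3 each; two-sided exact permutation p = 0.6). The partner Arnt (80.9 ± 6.89 and 83.6 ± 9.55 CPM) and the ligase subunit Vhl (24.6 ± 1.30 and 25.4 ± 3.54 CPM) had log2 fold changes of 0.046 and 0.045.

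The hydroxylases differed in how far the libraries spread, with the highest library 1.15-fold above the lowest for Egln1 and 2.02-fold for Egln3. WT replicate 2 was the highest library for both. Egln1, the main HIF prolyl hydroxylase, was at 148, 170 and 148 CPM in WT and at 160, 163 and 155 CPM in KO, with a log2 fold change of 0.036 (SE 0.0764, adjusted p = 0.930 with edgeR). Egln3, a hydroxylase that is itself a HIF target, was at 63.0, 127 and 89.5 CPM in WT and at 112, 123 and 110 CPM in KO. WT replicate 1 was lowest and WT replicate 2 highest of all libraries, 2.02-fold apart, and the KO libraries lay between them. The log2 fold change was 0.30 (SE 0.218, adjusted p = 0.792 with edgeR), with an interval of -0.20 to 0.81. It was 0.088 without WT replicate 1 and 0.60 without WT replicate 2. As a share of the pair per kb, Egln1 was at 63.5%, 49.7% and 55.0% in WT and at 51.4%, 49.4% and 51.02% in KO (two-sided exact permutation p = 0.3).

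Several of the other HIF targets showed the same order of the WT libraries as Egln3, with replicate 1 lowest and replicate 2 highest. Vegfa, the growth factor of blood vessels, was at 1006, 1317 and 1151 CPM in WT and at 1327, 1366 and 1268 CPM in KO. Only WT replicate 2 reached the KO range. The log2 fold change was 0.19 (SE 0.0994; unadjusted p = 0.0866, adjusted p = 0.725 with edgeR), with an interval of -0.033 to 0.41. Bnip3, a receptor for mitophagy, was at 194, 288 and 221 CPM in WT and at 271, 256 and 256 CPM in KO. WT replicate 2 was above and WT replicates 1 and 3 below every KO library, and the log2 fold change was 0.15 (SE 0.130, adjusted p = 0.813 with edgeR). Ndrg1, a stress-induced cytosolic protein, was at 248, 315 and 275 CPM in WT and at 283, 300 and 317 CPM in KO, with a log2 fold change of 0.10 (SE 0.0939, adjusted p = 0.832 with edgeR). Its groups overlapped through WT replicate 2.

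The remaining targets were Bnip3l, the mitophagy partner of Bnip3, Ero1l, an oxidase of protein folding in the endoplasmic reticulum, Ankrd37, the vasodilator peptide Adm, the collagen prolyl hydroxylases P4ha1 and P4ha2, and Mxi1, an antagonist of MYC. Their log2 fold changes ran from -0.018 (P4ha2) to 0.094 (Ankrd37), with edgeR adjusted p from 0.879 to 0.974. P4ha1 and Mxi1 were the steadiest of the 10 targets, with the highest library 1.15-fold and 1.13-fold above the lowest. Adm was the most variable, at 1.64 to 3.58 CPM.

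**Figure D3:**
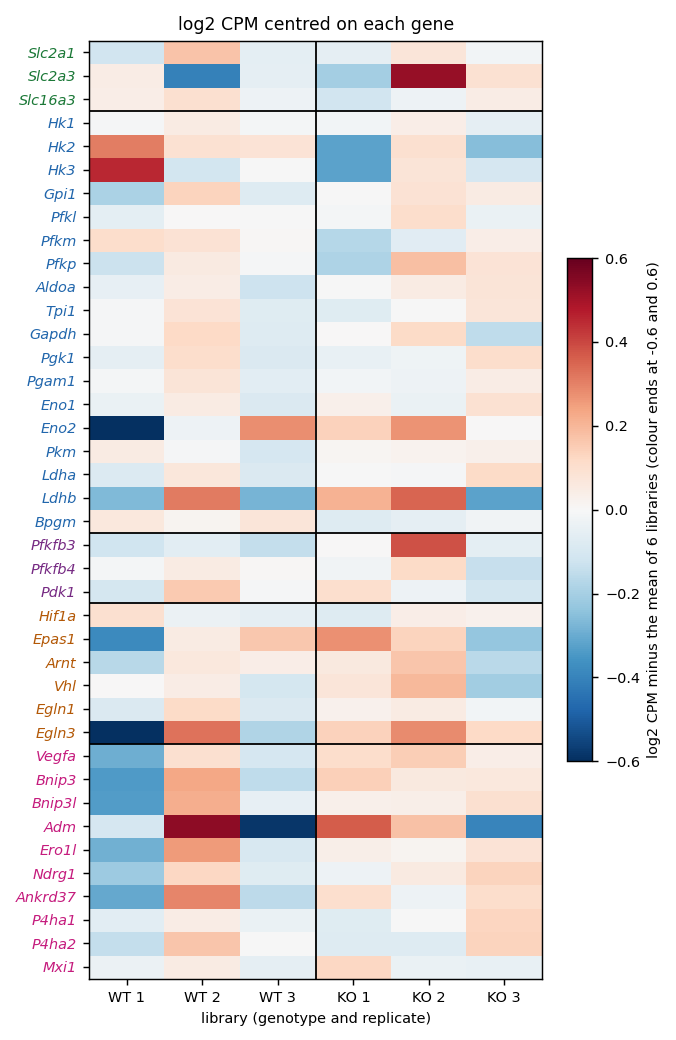
Colour gives each gene's log2 CPM minus its mean over the 6 libraries (columns, replicate number after the genotype), with genes in rows and lines between the role groups. In WT replicate 1 most HIF targets and Egln3 are blue and Hk2 and Hk3 red, and in WT replicate 2 the HIF targets are red. All 3 KO libraries lie between WT replicates 1 and 2 for Bnip3, Bnip3l, Ero1l, Ankrd37 and P4ha2, and not for the other 5 targets.

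The largest differences among these genes were between WT libraries. The median over genes of the ratio of the highest to the lowest library was 1.41 for the 10 other HIF targets, 1.15 for the 18 glycolytic enzymes and 1.31 for all tested genes. WT replicate 1 was the lowest of the 6 libraries for 7 of the 10 targets, against 20.5% of all tested genes and 3 of 18 glycolytic enzymes. WT replicate 2 was the highest for 6 of the 10 targets, for 6 of the 18 enzymes and for 1590 of the 12136 tested genes. This pair of libraries was chosen for comparison after their values were seen, and with 1 library on each side it has no replicate check. WT replicate 2 was at least 1.25-fold above WT replicate 1 for 7 of the 10 targets, for 2 of the 18 enzymes (Eno2 and Ldhb) and for Egln3 and Epas1, where 13.2% of all tested genes were. The enzyme Gpi1 fell just short of this cutoff at 1.248. By any amount, WT replicate 2 was above WT replicate 1 for all 10 targets, 13 of the 18 enzymes and 6092 of the 12136 tested genes. The ratio was 1.47 for Bnip3l, 1.46 for Ero1l, 1.31 for Vegfa and 1.27 for Ndrg1, and 1.11 for Ldha, 1.07 for Aldoa and 0.96 for Pkm. Hk3 went the other way at 0.68, with Hk2 at 0.86.

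Scores gave the same picture by library, as the mean log2 CPM of a role group centred over the 6 libraries. The score of the other HIF targets was -0.21, 0.20 and -0.13 in WT and 0.071, 0.033 and 0.036 in KO. That of the glycolytic enzymes was -0.03, 0.063 and -0.036 in WT and -0.048, 0.065 and -0.013 in KO. In these mean scores the KO libraries thus agreed closely with each other on HIF targets while the WT libraries did not, and both groups spread alike on the enzymes. Gene by gene, the SD in CPM was larger in KO than in WT for P4ha1 (18.7 against 10.1) and Mxi1 (14.2 against 8.09). It was smaller in KO for every other target. The difference in spread was not tested. Marker lists of other cells also differed between WT replicates 1 and 2. Fibroblast and endothelial markers summed to 273 CPM in WT replicate 1 and 378 CPM in WT replicate 2, the lowest and highest of the 6 libraries. Without Col3a1 the same sums were 182 and 189 CPM and no longer the extremes, with Lum at 0.306 CPM or less in every library and Col3a1 at 90.6 and 189 CPM. Monocyte markers summed to 495 and 639 CPM, and Cdh1 was at 76.7 and 141 CPM. Macrophage markers summed to 14564 and 13848 CPM, the 2 highest values. The part of these differences in the HIF target values was not tested.

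Because of this spread, the comparison of HIF targets depended on which WT library was present. Without WT replicate 2, 5 members were higher in KO at an unadjusted edgeR p under 0.05, namely Egln3 (log2 0.60), Bnip3 (0.34), Vegfa (0.30), Bnip3l (0.25) and Ero1l (0.24), and none passed adjustment (smallest adjusted p 0.323, for Egln3). Without WT replicate 1 no member had an unadjusted p under 0.05, and the same genes were at 0.088, 0.038, 0.099, -0.035 and -0.042.

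**Figure D4:**
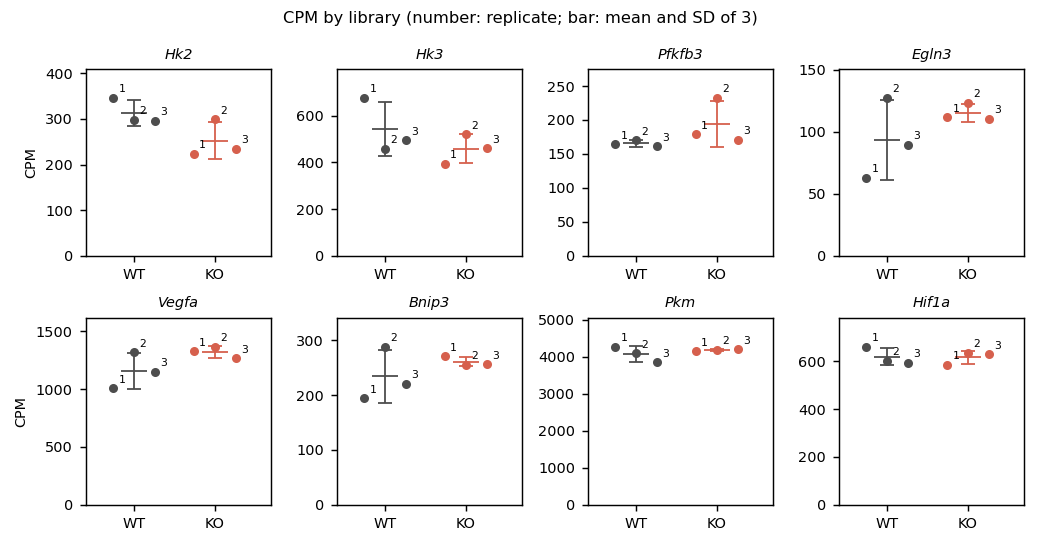
CPM by library for 8 genes, with the replicate number beside each dot and the mean and SD of 3 libraries as bars; each y axis starts at 0. The WT libraries spread from 63.0 to 127 CPM for Egln3 while the KO libraries stay between 110 and 123, and Pkm and Hif1a differ little in any library.

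Other genes of the same pathways came from lists chosen by role. Among 26 tested genes of glycolysis, lactate and pyruvate handling outside the members, 10 were positive and 16 negative (median -0.067). With edgeR 0 were called and 1 was lower at an unadjusted p under 0.05, and 4 had all KO libraries below all WT libraries, beside 6.3% of all tested genes. DESeq2 called 1 gene of the list, and both tools' gene was Slc2a6, a glucose transporter of lysosomes induced by inflammatory stimuli, at 57.2, 39.4 and 41.6 CPM in WT and 19.0, 31.2 and 31.0 CPM in KO. All KO libraries were below all WT libraries, and the log2 fold change was -0.77 (SE 0.213; adjusted p = 0.701 with edgeR, and 0.0351 with DESeq2, which is a call). Pdk2, a paralog of Pdk1, was at 0.30 (SE 0.149), and Pfkfb1 at -0.50 (SE 0.246) and under 3 CPM. Of 17 genes of the pentose phosphate pathway and glycogen, 7 were positive and 10 negative (median -0.04), with 0 at an unadjusted edgeR p under 0.05. The glycogen phosphorylase Pygl was at 0.20 and the epimerase Rpe at -0.12.

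Of 12 tested genes of the HIF machinery outside the members, 6 were positive and 6 negative (median 0.024), with 0 at an unadjusted edgeR p under 0.05. The demethylase Kdm5c was at 0.11, the coactivator Ep300 at 0.091 and the ubiquitin ligase Siah2, which targets the Egln hydroxylases, at 0.11. The list of 40 other hypoxia-responsive genes had 28 positive and 12 negative values (median 0.086), where 49.8% of all tested genes were positive, and 0 were called with edgeR or DESeq2. Of these 40, 5 were higher and 0 lower at an unadjusted edgeR p under 0.05, beside 3.86% and 3.06% of all tested genes, and 6 had all KO libraries above all WT libraries, beside 6.11%. WT replicate 1 was the lowest library for 45% of the list and for 20.5% of all tested genes. Many of these genes also answer to stimuli other than hypoxia. Ddit4, an inhibitor of mTORC1, was at 55.6, 59.0 and 55.2 CPM in WT and 83.2, 64.9 and 78.0 CPM in KO (log2 0.41, SE 0.0948, adjusted p = 0.694 with edgeR). Cxcr4, the receptor of the chemokine CXCL12, was at 68.8, 128 and 106 CPM in WT and 168, 198 and 131 CPM in KO (log2 0.72, SE 0.229, adjusted p = 0.701 with edgeR). Its groups did not overlap, and WT replicate 1 was again lowest. For the cyclin Ccng2, WT had 36.1 ± 1.21 CPM and KO 41.2 ± 0.692 CPM (SD, n = 3 each; log2 0.19, adjusted p = 0.703 with edgeR).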

How the data were processed

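The authors deposited raw read counts of genes for 3 WT and 3 KO libraries of sorted tumour macrophages, prepared per the labels with a TruSeq Stranded mRNA kit. The submitters' processing notes name Trimmomatic, HISAT2, Cufflinks, HTSeq and the build mm10. Versions, annotation, strand setting and the treatment of multiply mapped reads are not given in the sources used here.

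Counts were filtered with filterByExpr (minimum count 10, minimum total 15), scaled by TMM and fitted with edgeR 4.0.16 (quasi-likelihood, robust, genotype as the only term) in R 4.3.3, with p-values adjusted over all 12136 genes tested. SE is the log2 fold change divided by the square root of the F statistic, and 95% intervals use the fit's t distribution. Exon lengths and transcripts came from GENCODE M21 on GRCm38, the assembly mm10 names. Lengths are unions of all annotated exons, so levels per kb are lower than for a single transcript. Shares were compared by exact permutation. Scores use log2 CPM with a prior count of 2.

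In simulated counts of 12050 genes with 3 libraries a group, 74% of genes set to change 1.5-fold and 80% of those set to change 2-fold were called, and 6 of 167 calls were false. These shares cannot be read as the chance of a call in the real libraries, where far fewer genes were called. There Trmt61a, at a fold change of 0.284, had an adjusted p of 0.0426 with edgeR. Slc2a6, at 0.588, had an adjusted p of 0.701 with edgeR.

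The members and lists were chosen with earlier results of these data known. Values in every library are given for Hif1a, Epas1 and, per role group, the 3 members with the smallest p and the 2 with the highest level per kb, and from each further list up to 3 genes with the smallest p. Gapdh and the pair of WT libraries were singled out after their values were seen. Alternatives were other scaling factors, filters and tools (DESeq2 1.42.0, limma-voom 3.58.1), edgeR without its robust option, a block for the replicate number, and each library left out.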

Additional observations from a re-analysis of the deposited data

How the results depend on the processing

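No member was called under any of the 9 other settings or in any of the 6 fits with 1 library left out. The count of all genes called was 2 as reported, 27 with DESeq2, 0 with a filter of at least 1 CPM in 3 libraries, and 1 with RLE factors, upper-quartile factors, library totals alone, no filter, limma-voom or the replicate block. It was 0 to 5 when 1 library was left out. The count of members at an unadjusted p under 0.05 was 1 (Hk2), and 2 (Hk2 and Pfkfb3) with upper-quartile factors, library totals alone, no filter or the replicate block, and 0 to 6 when 1 library was left out. Deviations of same-numbered libraries correlated at -0.057, -0.094 and -0.11 over genes, so no effect shared by same-numbered libraries was seen. Whether the numbers 1 to 3 pair the libraries stays unknown, since paired libraries need not share such an effect. Medians of the 5 role groups moved by less than their spread between libraries under every setting except without WT replicate 2, where the median of the other HIF targets was 0.24 (range over the libraries left out 0.0082 to 0.24).

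Members near 0 changed sign without being called. Slc2a1 was at 0.0017 with library totals alone, 0.0012 with no filter, 0.0046 with the 1 CPM filter, 0.0016 with limma-voom and 0.0015 with the replicate block. Tpi1 was at -0.0014 with RLE factors and -0.0014 with DESeq2, Pgam1 at 0.0011 with upper-quartile factors, 0.0028 with library totals alone, 0.0028 with no filter and 0.0063 with the 1 CPM filter, and Hif1a at 0.0025 with the 1 CPM filter. The Pfkl share differed by -0.091 percentage points without the division by length. With 1 library left out, log2 values spanned Slc2a1 -0.057 to 0.094, Hk1 -0.046 to 0.0058, Pfkl -0.0078 to 0.069, Pfkp -0.021 to 0.16, Tpi1 -0.036 to 0.049, Gapdh -0.086 to 0.048, Pgk1 -0.023 to 0.091, Pgam1 -0.034 to 0.043, Pkm -0.00070 to 0.077, Pfkfb4 -0.092 to 0.036, Pdk1 -0.087 to 0.052. They spanned Hif1a -0.035 to 0.045, Epas1 -0.034 to 0.25, Arnt -0.030 to 0.13, Vhl -0.046 to 0.15, Bnip3l -0.035 to 0.25, Adm -0.17 to 0.41, Ero1l -0.042 to 0.24, Ankrd37 -0.022 to 0.30, P4ha1 -0.018 to 0.081, P4ha2 -0.089 to 0.071 and Mxi1 -0.030 to 0.068. Shares (KO minus WT, percentage points) spanned -1.12 to 1.32 for Pfkl, -0.45 to 0.059 for Ldha, -0.27 to 0.076 for Hif1a and -0.033 to 0.0037 for Eno1. The cause of these shifts was not tested.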
